A study of Mus musculus with 4 samples.

Results

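The genes described here reach their highest transcript level in mouse liver at ZT0, the hour at which the lights go on, and they act outside the core clock. They were taken from the study's table of circadian genes, which gives a peak time and mm9 coordinates for each gene. All genes with peak time 0 were kept, apart from the Arntl, Clock, Npas2, Per, Cry, Nr1d, Ror, Dbp, Tef, Hlf, Nfil3, Bhlhe and Cyp genes. This left 215 of the 1254 genes of the table, and the remaining 1039 genes served as the comparison. The name leaves out 5 genes with the same peak time, namely Npas2, Arntl, Clock, Nfil3 and Cyp8b1, which were counted among the other genes. All 215 ZT0-peaking genes were found by gene ID in the annotation of the same build with the same start, 205 of them as protein-coding, and they lie on 20 chromosomes.

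Binding of CTCF was measured by ChIP-seq, which uses an antibody to pull down a protein together with its DNA and then sequences that DNA. The tissue was liver of wild-type male C57BL/6 mice, 8 weeks old when placed under 12 h of light and 12 h of darkness with free access to food. A group was collected at ZT0, lights on, and the other at ZT12, lights off, each with 2 biological replicates. Each time point has a single list of sites for both replicates together, with 10113 sites at ZT0 and 6799 at ZT12, so the lists show neither the spread between animals nor the number of reads at a site. The lists are labelled as the outcome of a motif search and hold far fewer sites than the study reports, so a site called absent here is absent from a list and may still have been bound.

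CTCF is a zinc finger protein that binds a long, oriented DNA motif, stops the loop-extruding cohesin complex and marks the borders of many topologically associating domains. It also binds near the starts of many genes. The ZT0-peaking genes belong to several processes, among them protein folding, lipid metabolism and the upkeep of cell junctions. Other genes of protein folding and lipid metabolism peak at other times, such as Hspa8 and Fasn at ZT18. Many liver transcripts that peak around lights on are thought to answer to feeding and body temperature as well as to the clock.

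The question asked of the lists was how many CTCF sites lie around the ZT0-peaking genes at each time, and how near to their starts. A site was counted for a gene when it fell in the gene body extended by 50 kb on both sides. At ZT0, 171 of the 215 genes had a site (79.5%, 95% Wilson interval 73.6 to 84.4%), against 71.5% of all genes of the table and 69.9% (67.0 to 72.6%) of the other genes. At ZT12, 140 had a site (65.1%, 58.5 to 71.2%), against 58.7% of all genes of the table and 57.4% (54.3 to 60.3%) of the other genes. Among all 22350 annotated protein-coding genes the shares were 58.2% at ZT0 and 48.1% at ZT12. The ZT0-peaking genes thus had a CTCF site nearby more often than the rest of the table at both times, by like amounts in the full lists. These intervals cover counting error only, and the difference was not tested, since genes are not replicates of a condition.

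The gap to the other genes was not the same for each peak time. Of the 205 other genes peaking at ZT18, 75.1% had a ZT0 site and 65.4% a ZT12 site, so the ZT0- and ZT18-peaking genes lay within each other's intervals in both lists. Genes peaking at ZT6 (342 genes, 69.0% and 56.4%) and at ZT12 (487 genes, 68.6% and 54.6%) had lower shares. The mean number of ZT0 sites was 1.91 per ZT0-peaking gene, 1.72 per gene peaking at ZT18, 1.64 at ZT6 and 1.48 at ZT12. The mean number of ZT12 sites was 1.25 per ZT0-peaking gene and 1.28, 1.10 and 1.00 per gene peaking at ZT18, ZT6 and ZT12.

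Set beside each other, the lists divided the ZT0-peaking genes into 137 with sites in both (63.7%), 34 with sites in the ZT0 list alone (15.8%), 3 with sites in the ZT12 list alone (1.40%) and 41 with none (19.1%). Among the other genes these shares were 54.4%, 15.5%, 2.98% and 27.1%. The shares with sites in the ZT0 list alone were close, while that with sites in the ZT12 list alone was lower for the ZT0-peaking genes, on 3 genes. The ZT0-peaking genes thus had sites in both lists more often than the rest and had none less often. Genes peaking at ZT18 were much the same, with 63.4% in both lists and 22.9% in neither. More ZT0 than ZT12 sites were counted at 96 of the ZT0-peaking genes (44.7%), the same number at 104 and more ZT12 sites at 15 (6.98%). Of the other genes, 40.9% had more ZT0 sites and 6.93% more ZT12 sites. The ZT0 list is the longer of the lists, and in the full lists more ZT0 sites were counted around both sets of genes. When it was reduced to its widest sites, as many as the ZT12 list holds, the sets were less alike. A ZT0 site was then near 72.1% of the ZT0-peaking genes, against 65.1% with a ZT12 site. For the other genes these shares were 58.2% and 57.4%. The cut was made by width, and the ZT0 sites around the ZT0-peaking genes were the wider, with medians of 343.5 against 323 bp. Whether width goes with this contrast was not tested, and the cut was not made for each peak time.

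**Figure D1:**
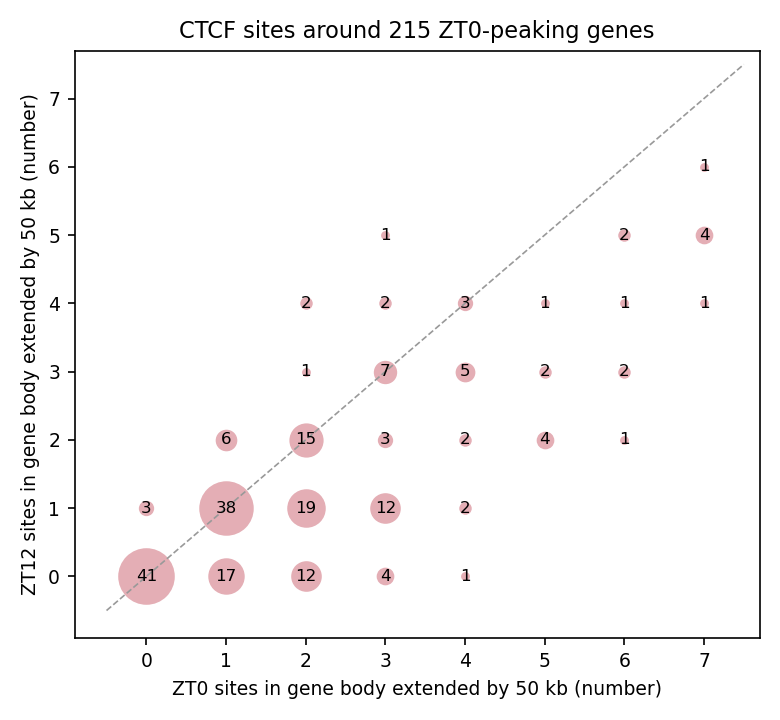
Number of ZT0 sites (x axis) against ZT12 sites (y axis) in the body of each of the 215 ZT0-peaking genes extended by 50 kb; the figure in each circle, and its area, give the number of genes, and the dashed line marks equal counts. The largest circles are the 41 genes with no site and the 38 with 1 site in each list, and more genes lie below the line (96) than above it (15).

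The starts of the ZT0-peaking genes lay closer to CTCF sites than those of the other genes. The median distance from the start to the nearest ZT0 site was 21.5 kb (quartiles 7.79 and 53.1 kb), against 34.7 kb (11.6 and 96.1 kb) for the other genes. To the nearest ZT12 site it was 32.5 kb (13.2 and 92.4 kb), against 51.6 kb (18.5 and 159.4 kb). By peak time the medians to a ZT0 site were 27.0 kb at ZT18, 34.7 kb at ZT12 and 39.2 kb at ZT6, so that the ZT0-peaking genes had the shortest of the 4. A ZT0 site lay within 10 kb of the start of 62 ZT0-peaking genes (28.8%, 23.2 to 35.2%) and of 21.9% of the other genes. A ZT12 site lay as near to 43 of them (15.2 to 25.9%) and to 15.4% of the other genes. Genes peaking at ZT18 were close to the ZT0-peaking genes in this, with 27.3% and 19.5%.

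**Figure D2:**
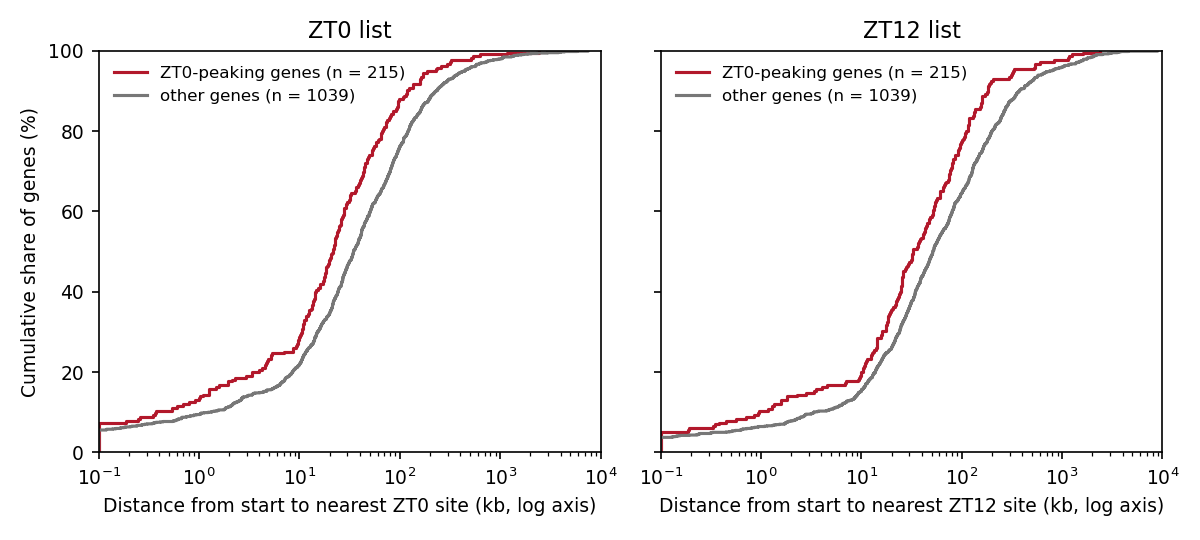
Cumulative share of genes (y axis, percent) by the distance from the start to the nearest CTCF site (x axis, kb, log axis; distances under 0.1 kb are drawn at 0.1) for the ZT0 list (left) and the ZT12 list (right). The curve of the 215 ZT0-peaking genes runs to the left of that of the 1039 other genes, with medians of 21.5 against 34.7 kb at ZT0 and 32.5 against 51.6 kb at ZT12.

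Sites fell on both sides of the genes. Upstream of the start, 109 ZT0-peaking genes had a ZT0 site within 50 kb (50.7%, 44.1 to 57.3%), and downstream of the end 107 did (49.8%, 43.1 to 56.4%). The other genes had 41.0% and 43.7%, and those peaking at ZT18 had 50.7% and 47.3%. Sites on both sides, which bracket the whole gene within 50 kb, were present at 63 ZT0-peaking genes in the ZT0 list (29.3%, 23.6 to 35.7%), against 23.1% of the other genes and 27.3% of those peaking at ZT18. In the ZT12 list 30 genes were bracketed (14.0%, 9.95 to 19.2%), against 14.6% of the other genes and 22.9% of those peaking at ZT18. The ZT0-peaking genes were thus close to the ZT18-peaking genes at ZT0, both above the other genes as a whole, and were bracketed no more often than the other genes at ZT12.

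The ZT0-peaking genes are short and stand in gene-rich sequence, and whether length or GC content goes with the counts was not tested. Their median length was 16.7 kb, against 27.8 kb for the other genes, so their windows were shorter although they held more sites. Merged, the windows covered 26.4 Mb and held 14.1 ZT0 sites and 9.16 ZT12 sites per Mb, against 9.73 and 6.72 per Mb in the 151.9 Mb around the other genes. The median window held 19.3 starts of other protein-coding genes per Mb, against 14.8, and a GC content of 46.9%, against 45.3%. The genes peaking at ZT18 were alike in this, with a median length of 17.0 kb, 21.0 starts per Mb, and 12.8 ZT0 sites and 9.61 ZT12 sites per Mb.

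To see the counts at like gene density, all genes of the table were divided into 3 classes of equal size by the number of protein-coding starts per Mb in the window. The densest class held 94 ZT0-peaking genes (43.7%) and 31.2% of the other genes. Within it, 87.2% (79.0 to 92.5%) of the ZT0-peaking genes had a ZT0 site, against 83.0% of the other genes, and 72.3% had a ZT12 site, against 74.4%. In the middle class the shares were 74.6% (62.7 to 83.7%) against 67.0% at ZT0 and 55.6% against 55.8% at ZT12. In the sparsest class, with 58 ZT0-peaking genes, they were 72.4% (59.8 to 82.2%) against 60.8% at ZT0 and 63.8% (50.9 to 74.9%) against 43.6% at ZT12. The differences in share were thus smaller in the dense class, and at ZT12 the ZT0-peaking genes had no higher share in the upper classes. Their median distances were shorter in each class. In the densest class these were 14.3 against 21.8 kb at ZT0 and 23.6 against 27.7 kb at ZT12. In the middle class they were 52.4 against 57.7 kb at ZT12. How far gene density accounts for the counts was not tested.

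Counted once each, 372 ZT0 sites and 242 ZT12 sites lay in the windows of the ZT0-peaking genes, 37 and 26 of them in the windows of 2 or more such genes. By an overlap of at least 1 bp, 219 of the former were shared with ZT12 (58.9%, 53.8 to 63.8%), close to the 59.5% around the other genes and the 56.2% of the whole list. Of the latter, 219 were shared with ZT0 (90.5%, 86.1 to 93.6%), against 86.4% (84.1 to 88.3%) around the other genes and 83.6% of the whole list. This left 153 sites listed at ZT0 alone and 23 listed at ZT12 alone. Shared ZT0 sites had a median width of 372 bp and those of the ZT0 list alone 299 bp, as around the other genes (360 and 281 bp). The share of shared sites around the ZT0-peaking genes was thus slightly below that around the other genes for the ZT0 list and above it for the ZT12 list. By peak time these shares ranged from 57.4% (ZT12) to 64.5% (ZT18) for the ZT0 list, and genes peaking at ZT6 had 89.6% for the ZT12 list, so the ZT0-peaking genes did not stand apart.

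By place, 28 of the 372 ZT0 sites lay within 1 kb of the start of the nearest ZT0-peaking gene (7.53%), 57 in the rest of its body (15.3%), 152 upstream (40.9%) and 135 downstream (36.3%). Around the other genes the order was turned, with 35.1% upstream and 41.1% downstream. Of the ZT0 sites, those near the start were most often shared (20 of 28, 71.4%), as they were around the other genes (66.7%). Of the ZT12 sites, 21 of 22 near the start (95.5%), 31 of 37 in the body (83.8%), 93 of 95 upstream (97.9%) and 74 of 88 downstream (84.1%) were shared, against 98.5%, 80.9%, 90.1% and 83.5% around the other genes. Many sites marked the start of a neighbouring gene: of the 132 ZT0 sites whose midpoint lay within 1 kb of an annotated transcript start (35.5%, 30.8 to 40.5%), 93 were at starts of genes outside the ZT0-peaking set. Around the other genes, 26.3% of the ZT0 sites were at a transcript start. The ZT0 sites of the ZT0-peaking genes otherwise lay in introns (87 sites), coding exons (16), UTRs (12) and other exons (4), and 121 lay between genes.

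CTCF sites of both lists were searched for the CTCF motif with 2 weight matrices of 20 bp, both learned from the ZT0 list alone. A matrix was learned on the odd chromosomes and used on the even ones and X, and the other was learned on these and used on the odd ones. Their most frequent bases were the same and are given here with the 12 core positions in capitals.
CTCF matrices: gtggCCACCAGGGGGCgcca
The score limit was set for each matrix on its own, as that passed by about 1% of regions 5 kb away from ZT0 sites. A match above it was found in 60.5% of all ZT0 sites and 62.5% of all ZT12 sites. The lists are labelled as the outcome of another motif search, so a site without a match here may still hold a motif. In the windows of the ZT0-peaking genes the share was lower, with 194 of 372 ZT0 sites (52.2%, 47.1 to 57.2%) against 60.8% (58.2 to 63.2%) around the other genes, and 132 of 242 ZT12 sites (54.5%, 48.2 to 60.7%) against 62.8%. Sites at a transcript start held a match less often than the rest. Around the ZT0-peaking genes, 54 of the 132 ZT0 sites at a transcript start had a match (40.9%, 32.9 to 49.4%) and 140 of the 240 elsewhere (58.3%, 52.0 to 64.4%). Around the other genes the shares were 46.8% (41.9 to 51.8%) and 65.7% (62.9 to 68.5%). The share was thus the lower around the ZT0-peaking genes both at starts and away from them, with overlapping intervals in each. Around the ZT0-peaking genes, ZT0 sites that were shared with ZT12 held a match in 55.3% and those of the ZT0 list alone in 47.7%. Around the other genes these shares were 64.0% and 56.0%.

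The genes were next grouped by known role, with 111 of the 215 in at least 1 of 10 groups. Of these 111, 89 had a ZT0 site and 76 a ZT12 site, much like the 79.5% and 65.1% of all ZT0-peaking genes. Summed over genes, all 215 had 411 ZT0 and 268 ZT12 sites and the other genes 1636 and 1130. In the full lists, more ZT0 than ZT12 sites is therefore the background for every group below, and solute transport alone had fewer. The ZT0 list is the longer. With only its widest sites kept, as many as the ZT12 list holds, the 215 genes had a mean of 1.45 ZT0 against 1.25 ZT12 sites. The other genes then had 1.12 against 1.09. How far list length or site width accounts for the counts of a group was not tested.

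**Figure D3:**
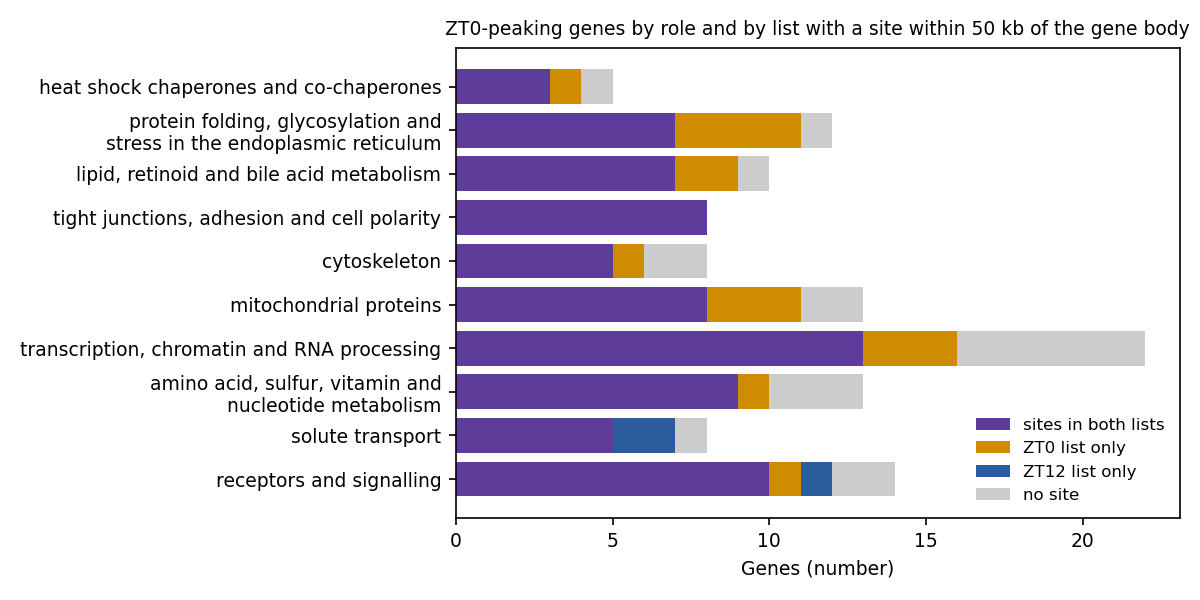
Number of ZT0-peaking genes (x axis) in each role group (y axis), divided by whether the gene body extended by 50 kb held sites in both lists, in the ZT0 list alone, in the ZT12 list alone or in neither. All 8 genes of tight junctions, adhesion and polarity had sites in both lists, and the genes with ZT12 sites alone are in solute transport (2) and in receptors and signalling (1).

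Heat shock chaperones hold unfolded proteins and are induced when body temperature or cell stress rises. Of the 5 genes, 4 had a ZT0 site and 3 a ZT12 site, much like the 79.5% and 65.1% of all ZT0-peaking genes. Hspa1a and Hspa1b, which encode the inducible Hsp70 proteins, lie 9.96 kb apart on chromosome 17 and have the same nearest site. In the ZT0 list it lay 40.8 kb downstream of the Hspa1a start and 28.0 kb downstream of the Hspa1b start, and each gene had 2 sites in each list, all shared. No site of either list lay between their starts. Dnajb1, the Hsp40 partner of Hsp70, likewise had 2 shared sites, the nearest 14.1 kb from its start. Bag3, a co-chaperone that guides Hsp70 clients to autophagy, had a single ZT0 site 49.1 kb upstream and no ZT12 site nearer than 182.1 kb. Chordc1, an Hsp90-binding protein, stood farthest from CTCF of all ZT0-peaking genes, with 2412 kb to the nearest ZT0 site and 2370 kb to the nearest ZT12 site.

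The endoplasmic reticulum genes fold, glycosylate and export secreted proteins, of which the liver makes a large amount. This group had the largest difference between the lists among the 10 groups, with 31 ZT0 sites and 10 ZT12 sites over 12 genes. Its median distance to a ZT0 site was 6.64 kb and to a ZT12 site 46.5 kb. P4ha1, the catalytic subunit of collagen prolyl hydroxylase, had 6 ZT0 and 2 ZT12 sites. Its start lay inside a ZT0 site at chr10:58785954-58786198 (mm9), which was absent from the ZT12 list, where the nearest site was 14.0 kb upstream. Ormdl3, a regulator of sphingolipid synthesis, had 4 ZT0 sites and no ZT12 site, the nearest being 9.99 kb and 67.8 kb away. These 2 genes had the largest excess of ZT0 sites of all ZT0-peaking genes.

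Most other genes of the endoplasmic reticulum also had more ZT0 than ZT12 sites, beside 44.7% of all ZT0-peaking genes and 40.9% of the other genes. Mogs, which removes the outermost glucose from N-glycans, had 5 ZT0 and 2 ZT12 sites, and its start lay inside a site in both lists. Sdf2l1, a partner of the chaperone BiP, had 1 ZT0 site 4.67 kb from its start and none at ZT12. Manf, a stress-induced secreted factor, had 2 ZT0 sites, the nearest 4.54 kb away, and no ZT12 site within 204.4 kb. Alg12, a mannosyltransferase of the N-glycan precursor, had 1 ZT0 site 8.60 kb away and no ZT12 site in its window. Together with Ormdl3, Sdf2l1, Manf and Alg12 made 4 of the 12 genes with ZT0 sites alone. The shares were 15.8% of all ZT0-peaking genes and 15.5% of the other genes. Ficd, which modifies BiP, and Ddit3, the stress-induced transcription factor CHOP, each had 2 ZT0 sites and 1 ZT12 site. Wrb, a receptor for tail-anchored proteins, had a site at its start in both lists, Syvn1, the ubiquitin ligase of protein quality control, had 1 shared site 20.4 kb away, and Atp2a2, the calcium pump, had none within 110.2 kb in either list.

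Genes of lipid, retinoid and bile acid metabolism had 27 ZT0 and 15 ZT12 sites over 10 genes, at median distances of 7.36 and 16.2 kb. Elovl3, an elongase of very long-chain fatty acids, had 3 ZT0 sites and no ZT12 site within 116.9 kb. Its nearest site, at chr19:46209749-46210102, falls in an Elovl3 UTR. Ppard, a nuclear receptor for fatty acids, had 5 ZT0 and 3 ZT12 sites, and a shared site lay 0.018 kb from its start in the ZT0 list and reached the start itself in the ZT12 list. Sec14l2, a lipid-binding protein, had 6 ZT0 and 3 ZT12 sites, the nearest 0.539 kb from the start. Plin5, a coat protein of lipid droplets, had 5 and 4, of which a site in a Plin5 coding exon was listed at ZT0 alone. The group thus ranged from genes with a site at the start in both lists to Insig2, which holds back the maturation of SREBP and had no site within 235.3 kb at ZT0 and 108.5 kb at ZT12.

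Of the remaining lipid genes, all but Pxmp4 had a single ZT0 site. Dhrs3, which reduces retinal to retinol, had 1 shared site 1.94 kb upstream of its start, between genes. Rdh13, another retinol dehydrogenase, had 1 shared site in its body, in a UTR. Acox2, the peroxisomal oxidase of bile acid side chains, had 1 shared site 45.1 kb away. Ephx2, the soluble epoxide hydrolase, had 1 ZT0 site 23.1 kb upstream and no ZT12 site in its window. Pxmp4, a peroxisomal membrane protein, had 4 ZT0 and 2 ZT12 sites.

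Tight junctions seal the bile canaliculus, and polarity proteins set the canalicular side of the hepatocyte. All 8 genes of this group had sites in both lists, as did 63.7% of all ZT0-peaking genes, with 28 ZT0 and 17 ZT12 sites in all and median distances of 8.32 and 8.42 kb. Tjp3, a scaffold of the junction, had 6 ZT0 and 5 ZT12 sites, and the nearest lay 1.25 kb upstream of its start at the start of the neighbouring Pip5k1c. Cldn1, a claudin strand protein, had a single site in each list, and it contained the start. Cgn, which encodes cingulin, had 3 ZT0 sites and 1 ZT12 site, and the nearest ZT0 site, in a Cgn intron 21.6 kb from the start, was absent at ZT12, where the distance was 116.4 kb. At the Cldn1 start the lists were thus alike, while inside Cgn they differed.

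Of the polarity and adhesion genes, Pard6b, a partner of atypical protein kinase C, had 5 ZT0 and 2 ZT12 sites, and an intron site 17.2 kb from its start was listed at ZT0 alone. Llgl2, a basolateral polarity protein, had 4 and 3, with the nearest shared site 9.67 kb upstream. Lad1, an anchoring filament protein, had 3 in each list. Cdcp1, a transmembrane adhesion protein, had 3 ZT0 sites and 1 ZT12 site, at 43.7 and 92.1 kb.

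Cytoskeletal genes had 15 ZT0 and 10 ZT12 sites over 8 genes. Tubb2a and Tubb2b encode beta-tubulins and lie 49.0 kb apart on chromosome 13. The Tubb2a start lay in a ZT0 site at chr13:34169842-34170120 that had no partner at ZT12, where the nearest site was 77.0 kb away. Tubb2b had 3 ZT0 sites and 1 ZT12 site, the latter 24.7 kb upstream and shared. Mical2, an oxidase that takes apart actin filaments, had 4 ZT0 and 3 ZT12 sites, and its relative Micalcl, which follows it 13.1 kb downstream, had 2 and 1 with a shared site 0.793 kb from its start. Eps8l2, an actin-capping relative of Eps8, was among the few with more ZT12 (4) than ZT0 (3) sites. Kifc3, a minus-end motor, had 1 shared site 43.2 kb away, and the actin-associated Lasp1 and Rai14 had none in their windows.

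Mitochondrial proteins had 23 ZT0 and 19 ZT12 sites over 13 genes. Gfer, the sulfhydryl oxidase of the intermembrane space, had 3 ZT0 and 5 ZT12 sites, and 2 of the latter, at chr17:24804477-24804699 and chr17:24874298-24874508, were listed at ZT12 alone. Opa3, a mitochondrial membrane protein, had 6 and 4. Sco2, a copper chaperone of cytochrome c oxidase, had 2 in each list, the nearest 1.01 kb from its start at ZT0 and 0.965 kb at ZT12, within Tymp. Exog, a nuclease, had 1 ZT0 site and 2 ZT12 sites. Coq4, Mrpl36 and Nt5m, of ubiquinone synthesis, the mitochondrial ribosome and nucleotide turnover, had 2, 1 and 1 ZT0 sites and no ZT12 site. Taco1 had 2 in each list, and Adck3 and Ears2 had 1 in each. Bcs1l, which assembles respiratory complex III, and Clpx, the unfoldase of the matrix protease, had none in either list. Mitochondrial genes thus included both the ZT12 excess of Gfer and 3 of 13 genes with ZT0 sites alone, beside 15.8% of all ZT0-peaking genes.

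Transcription, chromatin and RNA processing was the largest group, with 44 ZT0 and 25 ZT12 sites over 22 genes. Thra, the thyroid hormone receptor alpha gene, had 7 ZT0 and 6 ZT12 sites, the most ZT12 sites of all ZT0-peaking genes. A shared site lay 0.908 kb inside the gene from its start, and a site in a Thra intron at chr11:98616060-98616324 was listed at ZT0 alone. Thra neighbours the clock gene Nr1d1, whose start lies 34.7 kb away. All 5 ZT0 and all 4 ZT12 sites in the Nr1d1 window were also in the Thra window, and 2 ZT0 sites and 1 ZT12 site lay between the starts. Zbtb7b, a zinc finger repressor, and Smarcb1, a subunit of the SWI/SNF remodeller, had 5 ZT0 sites each and 3 and 2 ZT12 sites.

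In the same group, Nr2f6, an orphan nuclear receptor, had 3 ZT0 sites and 1 ZT12 site, and Hdac5, a class IIa histone deacetylase, had 2 and 1. Pitx3, a homeodomain factor, had 3 ZT0 sites and no ZT12 site within 133.3 kb. Gtf2f1, of the general factor TFIIF, and Repin1, a zinc finger protein, each had 2 ZT0 sites and no ZT12 site. Lsm11, which processes histone messages, had 3 and 2, with a shared site over its start. Dnmt3b, a de novo DNA methyltransferase, had 1 shared site 39.5 kb upstream, and Rfxank, a subunit of the RFX complex, had 1 ZT0 site and 2 ZT12 sites. Ints10, of the Integrator complex, had 2 and 1, and Zbtb40, Zfp324 and Pnrc1 had 1 in each list, which for Pnrc1 was not the same site. The 6 genes with no site in either list were Tle3, Leo1, Zfp295, Actr8, Cstf2t and Hist1h2bc. Sites at both times were present at 13 of the 22 genes, beside 63.7% of all ZT0-peaking genes, and 6 of 22 had none, beside 19.1% of all ZT0-peaking genes and 27.1% of the other genes.

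Amino acid, sulfur, vitamin and nucleotide metabolism had 24 ZT0 and 17 ZT12 sites over 13 genes, with median distances of 13.7 and 25.5 kb. Nags, which makes the activator of the urea cycle, had 4 ZT0 and 2 ZT12 sites, and the nearest ZT0 site, 4.71 kb upstream, was absent at ZT12, where the nearest site was 6.80 kb away. Mpst, a sulfurtransferase, had 4 and 3. Naprt1, of NAD synthesis from nicotinic acid, had 2 in each list, all shared, with 0.007 kb between its start and the nearest ZT0 site. Fpgs, which adds glutamate to folates, had 3 in each, all shared. Ggcx, the vitamin K-dependent carboxylase of clotting factors, had 3 ZT0 sites and 1 ZT12 site. The lists were therefore identical around some of these enzymes and unlike around others.

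In this group too, Ethe1, a persulfide dioxygenase of the mitochondrion, had 3 and 2, and Ado, a thiol dioxygenase, had 1 shared site 12.5 kb away. Ddc, which decarboxylates aromatic amino acids, had 1 ZT0 site and 2 ZT12 sites, and Ido2, of tryptophan breakdown, had 2 and 1. Nme2, a nucleoside diphosphate kinase, had 1 ZT0 site 12.2 kb away and no ZT12 site within 99.6 kb. Amt of the glycine cleavage system, Mocos, which activates molybdenum cofactor, and Pnp, the purine phosphorylase, had none in their windows.

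Solute transport had 13 ZT0 and 16 ZT12 sites over 8 genes, the only group with fewer ZT0 sites. Its median distance was 45.9 kb at ZT0 and 32.1 kb at ZT12. Aqp8, an aquaporin of the hepatocyte, had 1 ZT12 site in an intron at chr7:130609336-130609585, 3.53 kb from its start, and no ZT0 site within 516.9 kb. Slc30a10, a manganese exporter, had 1 ZT12 site 47.2 kb downstream and no ZT0 site within 227.1 kb. These are 2 of the 3 ZT0-peaking genes with ZT12 sites alone. Slc22a15, an organic cation transporter, had 2 ZT0 and 3 ZT12 sites. Cnnm3, Slc16a1 (the lactate and pyruvate carrier), Slc35c1 (the GDP-fucose carrier) and Steap3 (a ferrireductase) had equal counts in both lists, namely 4, 3, 2 and 2. Slc17a4 had no site in its window.

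Receptors and signalling had 26 ZT0 and 22 ZT12 sites over 14 genes. Avpr1a, the vasopressin receptor of the hepatocyte, was the remaining gene with a ZT12 site alone, at chr10:121884434-121884696, 0.859 kb from its start, while the nearest ZT0 site was 95.8 kb away. Rtn4rl1, a relative of the Nogo receptor, had 7 ZT0 and 4 ZT12 sites, and the site 0.606 kb from its start was listed at ZT0 alone, with the nearest ZT12 site 14.5 kb away. Avpr1a and Rtn4rl1 thus had a site of opposite lists at their starts. Smo, the transducer of Hedgehog signals, had 2 ZT0 sites, the nearest in a Smo intron, and no ZT12 site within 117.6 kb. Prkaca, a catalytic subunit of protein kinase A, had 4 in each list, Lrp5, a Wnt co-receptor, 4 and 3, and Gpr137 3 in each.

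Among the other receptors, S1pr1, for sphingosine phosphate, and Ccr10, a chemokine receptor, each had 1 shared site in the body, 1.94 and 1.27 kb from the start. Gpr135 had a shared site 0.259 kb from its start, and Grk5, a receptor kinase, had a shared site over its start and a further ZT12 site. Il4ra, of interleukin signalling, and Efnb1, an ephrin on chromosome X, had 1 shared site each. Mrap, a partner of the melanocortin receptor, and Ppp1r3c, which targets phosphatase to glycogen, had none in their windows. The nearest site to the Ppp1r3c start was 296.1 kb away at ZT0 and 529.2 kb at ZT12.

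Neighbouring ZT0-peaking genes formed 17 pairs with no more than 50 kb between them, which held 33 of the genes. A ZT0 site lay between the starts of 9 pairs and a ZT12 site between those of 5, and 7 pairs had neither. No such counts are given for pairs of the other genes, so these numbers have no background here. Nolc1, a nucleolar chaperone, Elovl3 and Pitx3 lie side by side on chromosome 19. A ZT0 site stood between the starts of Nolc1 and Elovl3, 56.0 kb apart, and 2 ZT0 sites stood between those of Elovl3 and Pitx3, which overlap at their ends and start 16.5 kb apart, while no ZT12 site fell in the window of any of the 3. Mad2l2, a subunit of a translesion polymerase, and Fbxo6, a ubiquitin ligase adaptor for glycoproteins, converge with 0.016 kb between their ends and shared 7 ZT0 and 5 ZT12 sites, of which 2 in each list lay between the starts. Apba3 and Tjp3 overlap at their ends on chromosome 10 and also had 2 sites in each list between their starts. Pairs with a site between them at a single time thus stood beside pairs with the same sites at both.

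**Figure D4:**
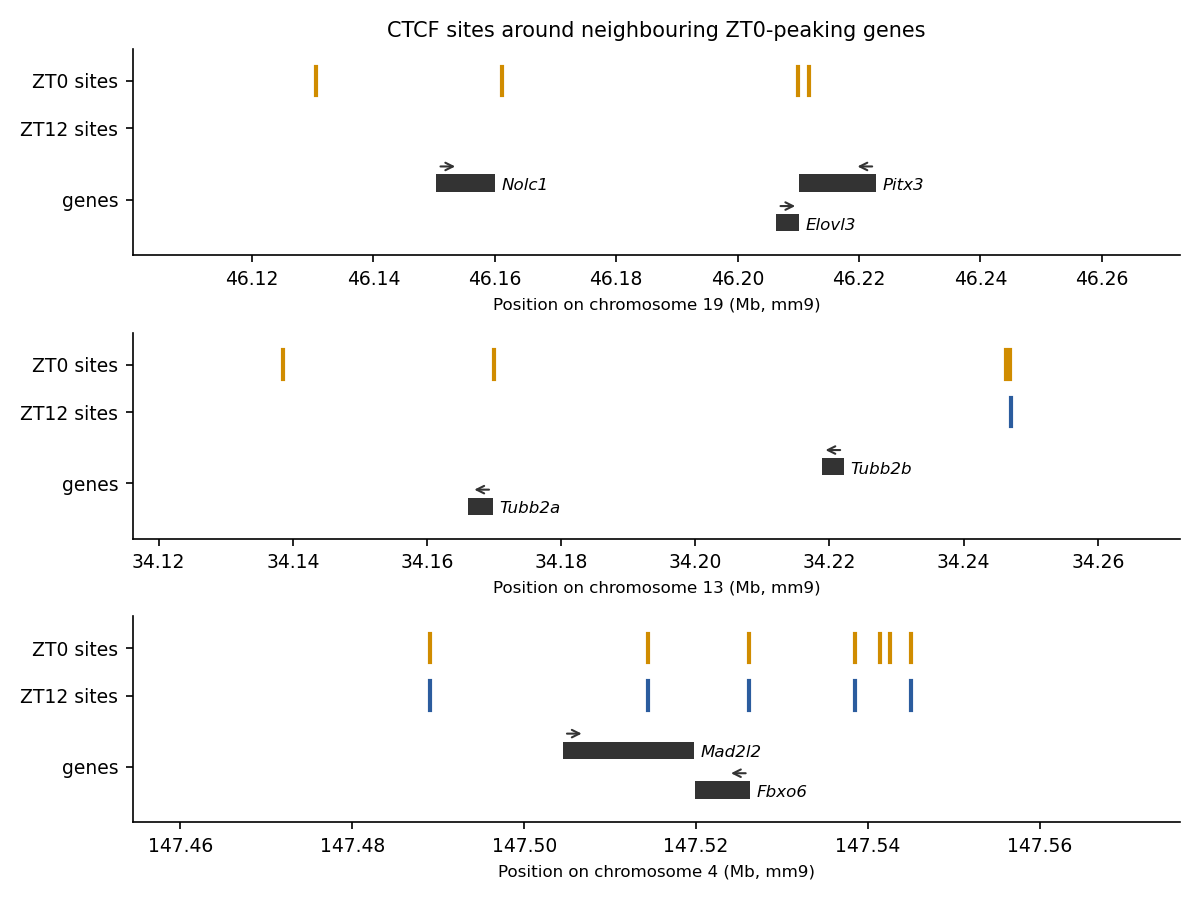
Maps of Nolc1, Elovl3 and Pitx3 (top), Tubb2a and Tubb2b (middle) and Mad2l2 and Fbxo6 (bottom) with 50 kb on both sides; the x axis is the position in Mb (mm9), boxes are gene bodies, arrows start at the gene start and point along transcription, and ticks are the midpoints of ZT0 and ZT12 sites. The top region has ZT0 sites and no ZT12 site, and the bottom region has 7 ZT0 and 5 ZT12 sites.

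The matches in the 3 ZT0 sites around Elovl3 and Pitx3 are shown because these sites were absent at ZT12, and all 3 lie on the plus strand, the strand of Elovl3 and opposite to Pitx3. They are given 5′ to 3′ on the plus strand of mm9, with the core in capitals, for the sites at chr19:46160966-46161227, chr19:46209749-46210102 and chr19:46211598-46211949 in that order.
Nolc1 to Elovl3: gaggCCAGGAGGTGGCgctc
Elovl3 UTR: gagaCCACCAGGTGGCgtcg
Pitx3 body: acccCCAGAAGGGGGCgcgc

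A CTCF site within 1 kb of the start was found for 30 ZT0-peaking genes, 28 of them at ZT0 (13.0%, 9.17 to 18.2%) and 22 at ZT12 (10.2%, 6.85 to 15.0%). The shares were 10.0% and 7.10% over all genes of the table and 9.43% and 6.45% over the other genes. In 20 genes such a site was present in both lists, in 8 at ZT0 alone and in 2 at ZT12 alone. The start itself lay inside a ZT0 site in 12 genes and inside a ZT12 site in 8. Those with a ZT0 site near the start and no ZT12 site there included Tubb2a, P4ha1, Akap17b, Abhd14a, Rtn4rl1, Lnx2 and Bmp1. Akap17b, on chromosome X, had its nearest ZT12 site 1606 kb away, Lnx2, a ubiquitin ligase, 150.9 kb away, and Bmp1, the procollagen C-proteinase, 17.8 kb away. The 2 at ZT12 alone were Avpr1a and Sco2, and Sco2 missed the 1 kb limit at ZT0 by a small margin, as given above, so the lists differed at that start in name more than in place.

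Starts with a site in both lists included those of Ppard, Dtx4, Wrb, Adck5, Blcap, Cldn1, Dus2l, Fbxo6, Mogs, Lsm11, Ppdpf, Micalcl, Sh3pxd2a, Sec14l2, Gpr135, Grk5, Thra, Plcl2 and Naprt1. Most of these sites held no match above the score limit used here, which does not show that they lack a motif. A match was found at the start of 9 genes, at ZT0 in 8 and at ZT12 in 8. On the ZT0 list it lay on the strand of the gene in 5 and on the opposite strand in 3. The 9 sequences are printed to show which starts carry a match above that limit, on the strand that matched, 5′ to 3′, core in capitals.
Cldn1: gaaaCCACCAGGGGGCgctg
Sec14l2: actaCCACCAGGGGGCatcc
Lsm11: gcggCCACCAGGGGGCagca
Micalcl: ttggCCACCAGAGGGCagtg
Dtx4: tggaCCAGCAGGGGGCatgg
Avpr1a: gaggACAGCAGGGGGCgctg
Plcl2: tcggCCTGTAGGGGGCagcg
Wrb: acctCCTCTAGGGGGCagca
Rtn4rl1: cgggCCAGTAGGGGGTgccg
These matches lie, in mm9, at chr16:26371979-26371998 for Cldn1, chr11:4024108-4024127 for Sec14l2, chr19:12576682-12576701 for Dtx4, chr17:50648227-50648246 for Plcl2 and chr11:75006456-75006475 for Rtn4rl1, on the strand of the gene in each. On the opposite strand lay those at chr11:45758525-45758544 for Lsm11, chr7:119512739-119512758 for Micalcl, chr16:96366818-96366837 for Wrb and chr10:121884526-121884545 for Avpr1a. Cldn1, Sec14l2 and Lsm11 share the same core, which is also that of both matrices. Over all ZT0-peaking genes whose nearest ZT0 site lay upstream and held a match, the strand was that of the gene in 26 and the opposite in 23, and for nearest sites downstream it was 15 and 21. Around the other genes these counts were 168 and 146 upstream and 113 and 81 downstream, and within 1 kb of the start 29 and 13. Both strands were thus present on each side of the genes, and these counts were not tested.

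The ZT0-peaking genes with most sites were spread over several roles. Besides Thra, Rtn4rl1, Mad2l2 and Fbxo6, 7 ZT0 sites were counted for Apba3, an adaptor of membrane traffic, and Sh3pxd2a, a scaffold of podosomes, each with 5 ZT12 sites. Adck5, a predicted mitochondrial kinase, had 6 and 5. Sh3pxd2a is among the longest of the genes, at 204.2 kb, and 3 of its sites in each list lay in its introns. After P4ha1 and Ormdl3, an excess of 3 ZT0 sites was seen at 13 genes, among them Mogs, Pard6b, Sec14l2, Rtn4rl1, Crip2, Pnkd, Nolc1, Elovl3 and Pitx3. In the opposite direction, 3 genes had 2 more ZT12 than ZT0 sites, namely Gfer, Dpp9, a dipeptidyl peptidase, and Ticam1, an adaptor of Toll-like receptors. Dpp9 and Ticam1 lie near each other on chromosome 17 and share the same sites of the ZT12 list alone, at chr17:56390928-56391141 and chr17:56403526-56403747. The ZT0 list is the longer, excesses of ZT0 sites were the more frequent around the other genes too, and the difference between the lists at each gene was not computed at equal list length.

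After Chordc1, the starts farthest from a site of either list were those of Chic1 (1167 kb at both times), Pcdh18, a protocadherin (624.3 kb at ZT0 and 1149 kb at ZT12), Usp46, a deubiquitinase (532.7 and 532.8 kb), and Tle3, a Groucho co-repressor (325.6 and 325.5 kb). Tmem41b, a scramblase needed for autophagy, had none within 96.8 kb at ZT0 and 177.2 kb at ZT12. Mreg, which acts in the transport of melanosomes and lysosomes, had 2 ZT0 sites and 1 ZT12 site downstream, the nearest shared at 69.9 kb from its start. Rnf125, a ubiquitin ligase, had 1 shared site in an intron, 32.1 kb from its start.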

How the data were processed

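CTCF ChIP-seq of mouse liver gave 4 libraries, 2 biological replicates at ZT0 and 2 at ZT12. According to the submitters' processing notes and the study's methods, the authors mapped reads to NCBIM37/mm9 with Bowtie2, filtered them with SAMtools, removed duplicates and called peaks with MACS2. They deposited a list per time point, labelled as peaks of both replicates after a FIMO motif search, and how replicates were joined is not given in the sources used here. The lists hold positions only, taken as BED starts, so no test between samples was possible and percentages carry 95% Wilson intervals. The circadian gene table was used for membership, peak time and coordinates, and 2 repeated entries of its 1256 were dropped. Annotation was GENCODE of the same build. Genes named come from those of the role groups, those within 1 kb of a site, the extremes of counts, differences and distances, neighbours within 50 kb and some genes named by the study. Members and lists were chosen with earlier results of these data known. Some genes that meet the naming rule are counted in the totals and not reported here by name. The measures were tested on simulated data. Python 3.11.15, NumPy 2.4.6, SciPy 1.17.1 and matplotlib 3.10.9 were used.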

Additional observations from a re-analysis of the deposited data

How the results depend on the processing

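No paired analysis was possible because neither list tells its replicates apart. Of 62 values under other settings, 45 stayed within the interval of the reported value. Of these 45, the ZT12 share, mean, distance and density with a reduced ZT0 list could not move, as that setting leaves the ZT12 list as it is. The 6 values with annotated coordinates equal the reported ones and show nothing further, and all 215 genes have the same start there. With a flank of 10 kb, 49.3% of the ZT0-peaking genes had a ZT0 site and 37.7% a ZT12 site, with means of 0.693 and 0.474 sites. With 100 kb, the shares were 88.8% and 80.5% and the means 3.09 and 2.11. A longer or shorter window holds more or fewer sites by construction. With the ZT0 list reduced to its widest sites, as many as the ZT12 list holds, 72.1% had a ZT0 site, with a mean of 1.45, a median distance of 28.1 kb and 10.6 sites per Mb. For ZT12 sites the share and mean were 65.1% and 1.25. Of the other genes, 58.2% then had a ZT0 site, with a mean of 1.12, close to their 57.4% and 1.09 for ZT12 sites. That setting keeps wide sites, and by median the ZT0 sites around the ZT0-peaking genes were wider than those around the other genes. Around the ZT0-peaking genes, 66.4% of the ZT0 sites were then shared and 76.9% of the ZT12 sites. When an overlap of 50% of both sites was required, 85.1% of the ZT12 sites were shared. In windows of 50 kb around the start without the body, chosen after seeing the data, the means were 1.56 ZT0 and 1.04 ZT12 sites. Shares, means and densities stayed above those of the other genes, and median distances below, in every setting run, among them autosomes alone, 1 gene per cluster of overlapping windows and, chosen after seeing the data, protein-coding genes alone. The share of ZT0 sites found at ZT12 was above that of the other genes in 2 of 5 settings and below in 3. The lists give no depth, so a site absent from a list may have fallen short of the caller's threshold.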
